A study of Caenorhabditis elegans with 2 samples.

Results

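The cytosolic ribosomal protein genes of Caenorhabditis elegans were taken here as all protein-coding genes whose names begin with rpl- (large subunit) or rps- (small subunit). There were 78 of them, 47 rpl- and 31 rps- genes, among 19973 nuclear protein-coding genes in the Ensembl annotation of WBcel235 (the ce11 build). Names alone chose the members and no measured value entered the rule, but the rule was set with earlier results of these data known. The values came from a chromatin immunoprecipitation and sequencing (ChIP-seq) experiment on the zinc finger protein F26F4.8. A single group of 2 biological replicates was measured. The animals were of strain OP776, which carries the transgene wgIs776 with F26F4.8 fused to TY1, EGFP and 3xFLAG tags and a rescuing unc-119(+), in an unc-119(tm4063) background. Whole fourth-stage (L4) larvae, 48 hours old, had been synchronised by bleaching and starvation as first-stage larvae, and the fusion protein was precipitated with an antibody to GFP. The signal is therefore that of a tagged copy from a transgene, averaged over all tissues. No control precipitation was used here, so no group was set against another, no test was made and every value below is a description.

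Ribosomal proteins join ribosomal RNA to build the small subunit, which decodes the messenger RNA, and the large subunit, which joins amino acids. Their genes are transcribed by RNA polymerase II, are short and are among the most strongly expressed genes of growing cells, larvae included. Some of them hold within their span small nucleolar RNA (snoRNA) genes, whose products guide the modification of ribosomal RNA.

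A listed peak is a peak of the authors' conservative set, which holds 978 peaks kept at an irreproducible discovery rate (IDR) of at most 0.01. The IDR estimates how often a call of that rank would fail to recur between replicates. A ranked peak is any of the 109990 peaks of the list from which that set was taken. Of the ranked peaks, 130 met the same IDR limit but were not in the set, and 0 of these lay at ribosomal protein genes. The signal is the peak caller's enrichment in arbitrary units: a pooled value from both replicates together, and beside it 1 value for each replicate's matched peak. Replicate values are on the scale of their own lists and are not directly comparable with the pooled value. The median pooled signal was 87.9 over the listed peaks and 23.8 over all ranked peaks, and of the listed peaks 379 had a summit within 200 bp of a tRNA or snoRNA gene. A gene took every peak whose summit lay within 1000 bp of the start (TSS) of any of its transcripts.

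Listed peaks lay at 8 of the 78 ribosomal protein genes: rpl-3, rpl-15, rpl-10 and rpl-43 of the large subunit, and rps-6, rps-25, rps-15 and rps-4 of the small subunit. That is 10.3% (95% Wilson interval 5.29% to 18.95%), against 2.35% (469 of 19973) over all protein-coding genes. The interval covers counting error only, and neighbouring genes can share a peak. The sequences of 2 of these peaks follow, because they hold a strong upstream summit (rpl-15) and a strong downstream summit (rps-25) in peaks without annotated exon bases. Each is the whole 264-bp peak on the plus strand of ce11, 5′ to 3′, and the capitals mark the 61 bases centred on the summit.
rpl-15, IV:654811-655074: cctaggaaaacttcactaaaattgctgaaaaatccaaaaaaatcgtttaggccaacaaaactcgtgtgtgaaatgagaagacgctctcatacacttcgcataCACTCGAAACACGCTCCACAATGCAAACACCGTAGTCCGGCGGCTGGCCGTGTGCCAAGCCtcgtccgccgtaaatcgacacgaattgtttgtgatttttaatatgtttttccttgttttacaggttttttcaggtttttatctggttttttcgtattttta
rps-25, IV:5946761-5947024: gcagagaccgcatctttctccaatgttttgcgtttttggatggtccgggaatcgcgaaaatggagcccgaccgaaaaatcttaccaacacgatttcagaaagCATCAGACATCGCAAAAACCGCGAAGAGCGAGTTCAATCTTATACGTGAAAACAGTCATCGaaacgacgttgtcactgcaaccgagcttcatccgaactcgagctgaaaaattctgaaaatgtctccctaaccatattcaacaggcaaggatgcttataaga
The GC content was 40.5% in the rpl-15 peak and 44.7% in the rps-25 peak. In the 61 bases at the summit it was 62.3% for rpl-15 and 44.3% for rps-25. The dinucleotide CG occurred 16 times in the rpl-15 peak and 19 times in the rps-25 peak.

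Among the large-subunit genes the strongest peak was at rpl-3, whose product is a core protein close to the peptidyl transferase centre. Its summit lay on chromosome III, 294 bp upstream of the TSS. The pooled signal was 142 (IDR 0.000706), with 63.0 in replicate 1 and 72.8 in replicate 2. This was rank 166 of the 978 listed peaks, and both replicates were high. The nearest tRNA or snoRNA gene was 85690 bp away, and rpl-3 was the single ribosomal protein gene with a peak in the thresholded list of each replicate and in both pooled sets.

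The gene rpl-15 encodes another large-subunit protein and lies on the minus strand of chromosome IV (653480 to 654576). Its listed summit was at 654943, 367 bp upstream of the TSS. It had a pooled signal of 114 (IDR 0.00132), with 55.6 in replicate 1 and 53.7 in replicate 2, so the replicates were nearly equal. The gene has 2 snoRNA genes inside it, and the nearer, K11H12.13, was 582 bp from this summit. A second, unlisted summit in an rpl-15 coding exon, 80 bp from the same snoRNA gene, had a pooled signal of 48.6, with 26.9 and 19.3 in the matched peaks.

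The other 2 large-subunit genes had their summits past the 3′ end. At rpl-10, whose yeast counterpart is added late in large-subunit maturation, the summit lay on chromosome II, 926 bp downstream of the TSS and 136 bp past the end of the gene (peak 8144675 to 8144938). The pooled signal was 87.8 (IDR 0.00651), with 59.2 in replicate 1 and 28.8 in replicate 2, the widest replicate ratio (2.06) of the 8 peaks. That summit was inside the gene F10B5.2, 45 bp from its TSS, so the peak is closer to the neighbour's start than to that of rpl-10. At rpl-43, a gene of 276 bp for a zinc-binding large-subunit protein, the summit lay 391 bp downstream of the TSS and 116 bp past the 3′ end (II:14155553-14155816). Its pooled signal was 60.1 (IDR 0.00575), with 41.5 in replicate 1 and 33.1 in replicate 2. Here the nearest protein-coding start was that of xrn-2, which encodes a nuclear exoribonuclease, at 83 bp.

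Among the small-subunit genes the strongest listed peak was at rps-6, the counterpart of the mammalian protein phosphorylated by S6 kinase. The peak (I:13953270-13953533) had its summit 866 bp downstream of the nearest rps-6 TSS and 199 bp past the 3′ end. The pooled signal was 99.3 (IDR 0.00166), with 52.4 in replicate 1 and 46.5 in replicate 2. Although the summit was past the gene, no other protein-coding TSS was nearer. It was assigned through an internal annotated start of rps-6, and with the 5′ end of the gene alone it lay outside 1000 bp.

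At rps-25, a small-subunit gene of 513 bp, the summit lay 712 bp downstream of the TSS and 200 bp past the 3′ end, in the rps-25 sequence printed above. Pooled over both replicates, the signal was 87.7 (IDR 0.00209), with 48.9 in replicate 1 and 40.8 in replicate 2. The nearest protein-coding start was that of the innexin gene inx-7, at 255 bp. The rps-25 and rpl-10 signals were almost the same in the pooled list, but the weaker of the replicate values was 40.8 at rps-25 and 28.8 at rpl-10.

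The gene rps-15 had the single listed summit within 200 bp of a ribosomal protein gene TSS, in an intron 178 bp downstream of the start (I:8815883-8816146). The pooled signal was 65.5 (IDR 0.00649), with 38.8 in replicate 1 and 33.8 in replicate 2. At rps-4, the summit lay 967 bp downstream of the start, in a noncoding exon 19 bp before the 3′ end (IV:7083583-7083846). At 37.3 (IDR 0.00639), with 33.3 in replicate 1 and 49.7 in replicate 2, it had the weakest pooled signal of the 8. The replicate values did not follow that order, since replicate 2 at rps-4 was exceeded in the other 7 only by rpl-3 and rpl-15. An overlapping listed peak with its summit at 1172 bp, outside the window, had a pooled signal of 79.8 and the same replicate 2 value of 49.7. The rps-4 summit was also the only one of the 8 within 200 bp of a tRNA or snoRNA gene: Y43B11AR.7, a snoRNA gene inside rps-4, was 157 bp away. Its nearest protein-coding start was that of Y43B11AR.3, at 1 bp.

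**Figure D1:**
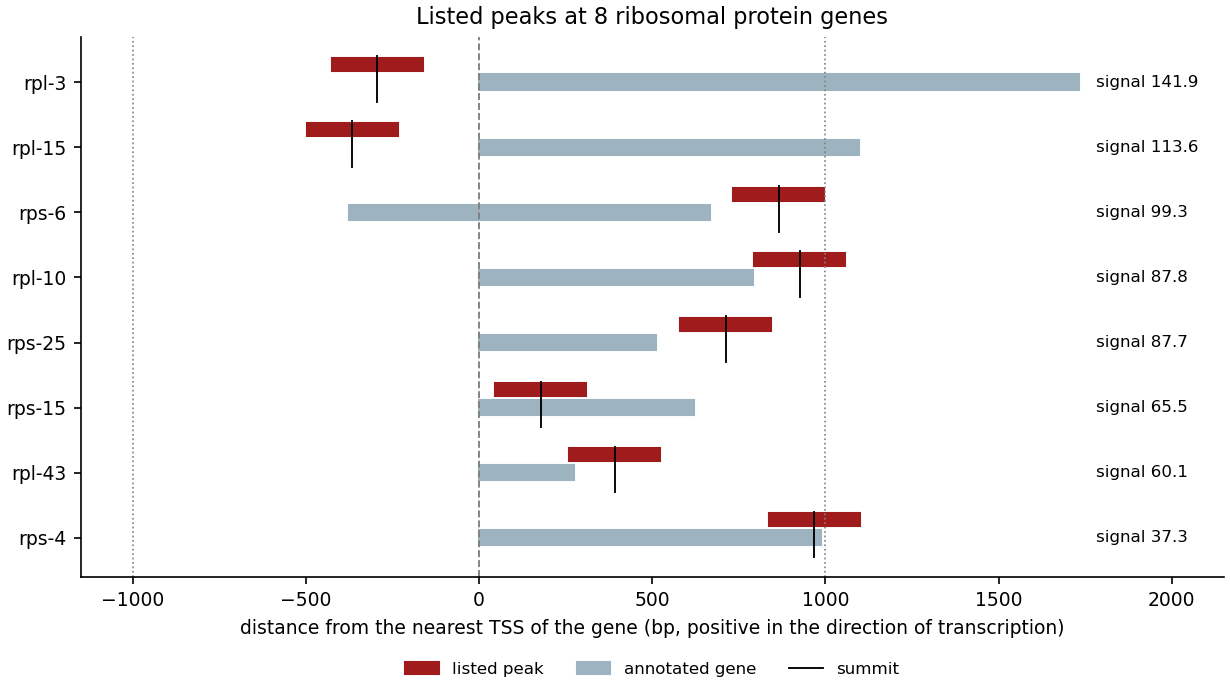
Position of the listed peak (red bar, black summit line) and of the annotated gene (grey-blue bar) at the 8 ribosomal protein genes, in bp from the nearest TSS of the gene and in its direction of transcription; dotted lines mark 1000 bp and the pooled signal in arbitrary units is at the right. The summits of rpl-3 and rpl-15 are upstream, those of rps-15 and rps-4 inside the gene and the other 4 past the 3′ end; the rps-6 gene starts left of 0 because its nearest TSS is an internal one.

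Across the 8 peaks the summits were thus upstream of the gene at 2, in an intron at 1, in a noncoding exon at 1 and past the 3′ end at 4, with a median distance of 551.5 bp from the TSS. Over the 511 pairs of a listed peak and a protein-coding gene the shares were 44.0% upstream, 27.6% in an intron, 3.52% in a noncoding exon, 17.2% in a coding exon and 7.63% past the 3′ end. The ribosomal protein gene itself owned the nearest protein-coding TSS at 4 of them (rpl-3, rpl-15, rps-6 and rps-15). Narrower windows kept fewer genes. Within 500 bp there were 4 (rpl-3, rpl-15, rpl-43 and rps-15), or 5.13%, against 1.23% of all protein-coding genes. Within 200 bp there was 1 (rps-15), or 1.28%, against 0.411% of all. With summits near tRNA and snoRNA genes left out there were 7 (8.97%), against 1.61% of all. The listed summits closest outside the window were those at rpl-17, 1071 bp downstream with a signal of 89.7 (42.8 and 53.9 in the matched peaks), and the further rps-4 peak.

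The thresholded lists of the single replicates held fewer ribosomal protein genes. Replicate 1 alone had a peak at 2 genes (2.56%, against 0.866% of all protein-coding genes), rpl-3 (signal 63.0) and rpl-12 (40.6). Replicate 2 alone had a peak at 3 (3.85%, against 0.761% of all), rpl-3 (72.8), rpl-15 (53.7) and rps-29 (39.8). The replicate 2 list also held a peak of 49.7 that overlapped the listed rps-4 peak, with its summit outside the window. The gene rpl-3 was the only one in both. The gene rpl-12, for the protein at the base of the ribosomal stalk, had its strongest pooled peak of 70.5 in a noncoding exon 227 bp downstream of the start, with 40.6 in replicate 1 and 25.0 in replicate 2. At rps-29, for a small zinc-binding protein of the small subunit, the strongest peak of 54.0 lay 858 bp downstream, with 19.9 in the first and 39.8 in the second matched peak. Each of these 2 genes was thus in the thresholded list of 1 replicate alone.

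The other thresholded set of pooled reads also held 8 ribosomal protein genes (10.3%, against 2.31% of all), but they were not the same genes. It shared rpl-3, rpl-15, rpl-10 and rps-6 with the conservative set, and held rpl-12, rpl-22, rpl-29 and rpl-31 in place of rpl-43, rps-25, rps-15 and rps-4. For rps-4 the difference was one of the window: this set held the overlapping peak of 79.8, whose summit at 1172 bp was not counted. Both pooled sets thus held the 4 strongest genes. The rpl-22 peak (60.8) lay 831 bp downstream of the start, and rpl-31 had a peak of 67.3 at 469 bp and one of 26.1 at 270 bp. These large-subunit genes had unequal replicate values: rpl-31 had 49.2 in the first and 18.1 in the second matched peak at its stronger summit, and rpl-22 had 26.1 and 34.9.

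Past the listed peaks the members formed a continuous series. The 5 strongest unlisted genes were rpl-27 (79.3, with 34.2 and 30.8 in the first and second matched peaks), rps-19 (72.4, with 24.1 and 43.9), rpl-12 (70.5), rpl-29 (69.8, with 43.7 and 28.4) and rpl-35 (68.0, with 49.1 and 16.2). All 5 had a higher pooled signal than the listed peaks at rps-15, rpl-43 and rps-4. Each of the 5 had 1 matched replicate value under 31, but so did the listed peak at rpl-10 (28.8). RPS-19 is a small-subunit protein whose human counterpart is mutated in Diamond-Blackfan anaemia, and the rpl-35 product lies near the exit of the nascent peptide tunnel. In order of the IDR the next genes after the threshold were rpl-29 (0.0104), rpl-30 (0.0138), rpl-27 (0.0153) and rps-11 (0.0154), so rpl-29 missed the list by little. The weakest strongest peaks were at rpl-18 (22.6) and rpl-24.2 (19.4). The gene rpl-37 had no ranked peak within 1000 bp.

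**Figure D2:**
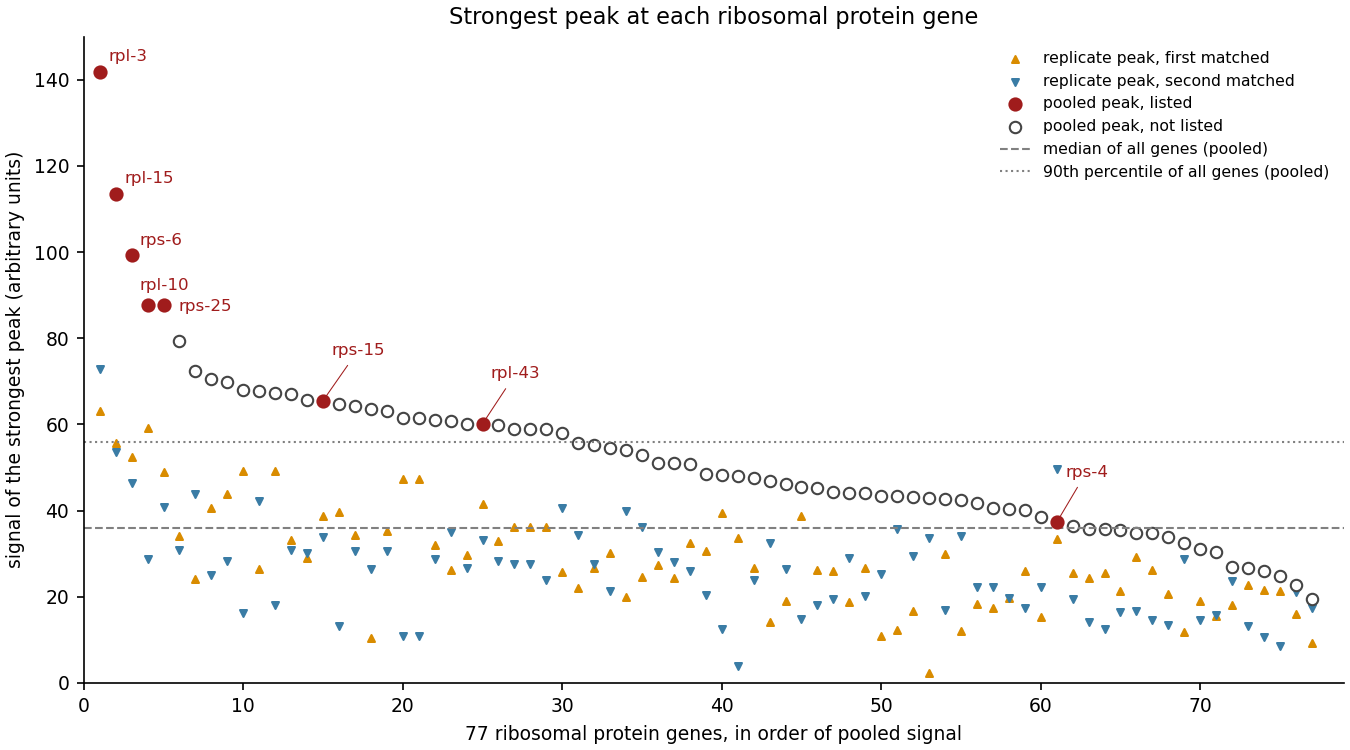
Signal in arbitrary units of the strongest ranked peak at each of 77 ribosomal protein genes in order of the pooled signal, with circles for the pooled peak (filled where listed) and triangles for the 2 matched replicate peaks; lines give the median (36.0) and 90th percentile (55.9) over all protein-coding genes. The pooled signal ran between 19.4 and 142, most members were above the all-gene median, and the replicate triangles also lie lower toward the right, with wide scatter at each place in the order.

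A ranked peak of any strength lay within 1000 bp at 77 of the 78 genes (98.7%, against 84.3% of all protein-coding genes). The strongest signal per gene had a median of 48.6 over the 77 ribosomal protein genes (quartiles 40.3 and 61.5), against 36.0 over 16837 protein-coding genes with a peak (quartiles 27.7 and 45.6). The median ribosomal protein gene stood at the 81.0th percentile of all genes. Of the 77, 44 were above the all-gene upper quartile (57.1%, 95% Wilson interval 46.0% to 67.6%, against 25.0% of all) and 30 were above the 90th percentile (39.0%, interval 28.8% to 50.1%, against 10.0% of all).

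**Figure D3:**
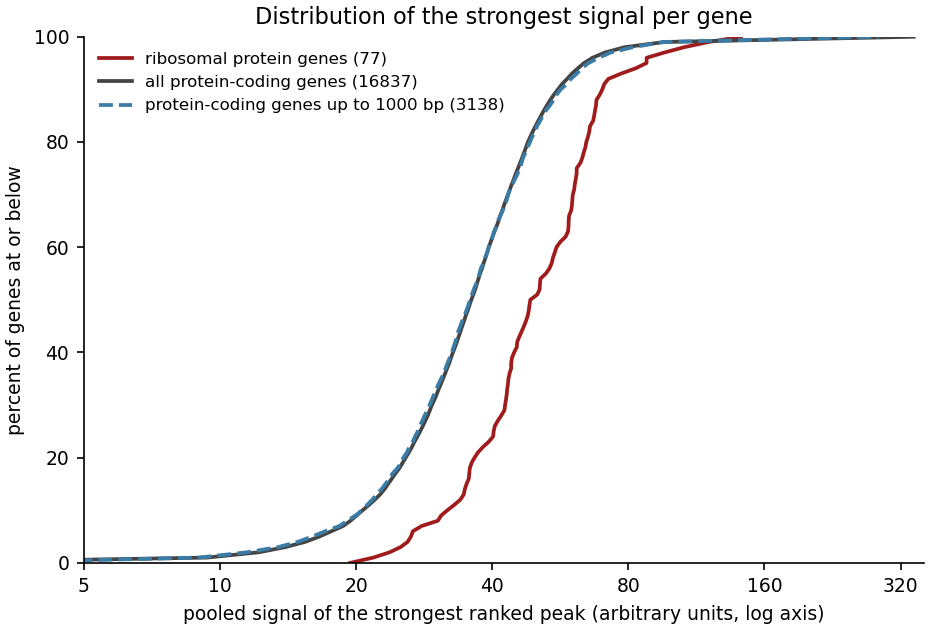
Percent of genes whose strongest ranked peak has at most the pooled signal on the x axis (arbitrary units, log axis), for 77 ribosomal protein genes, 16837 protein-coding genes and the 3138 of these spanning at most 1000 bp. The ribosomal protein curve lies to the right of both others up to the 99th percentile, with a median of 48.6 against 36.0 for all genes and 35.7 for short genes.

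In the ranked list of each replicate, taken alone, the ribosomal protein genes were also higher than all genes. In replicate 1 the strongest signal had a median of 29.7 over 75 ribosomal protein genes, against 22.7 over 14663 genes. In replicate 2 the median was 28.0 over 75 ribosomal protein genes, against 19.96 over 14460 genes. Above the upper quartile of that replicate's genes were 40 of 75 in replicate 1 (53.3%, against 25.0% of all) and 48 of 75 in replicate 2 (64.0%, against 25.0% of all). Of the 73 ribosomal protein genes with a peak in both lists, 30 were above it in both (41.1%), against 12.2% of 11985 genes. The pooled list is made from the reads of both replicates and adds no separate measurement.

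Although the members as a set were high in both replicates, the 2 replicates ordered them differently. The matched signals of the 77 strongest peaks had a Pearson r of 0.0115 on log2 values and a Spearman rho of 0.0678, against r = 0.225 and rho = 0.211 over 16837 genes. These are correlations across genes of 2 libraries, which share the selection by pooled signal, and are given as descriptions. With all 266 ranked peaks of the ribosomal protein genes taken, r was 0.166 and rho 0.119, against 0.254 and 0.268 over 46513 peaks at protein-coding genes. The first matched signal was the higher at 46 of the 77 genes (59.7%), against 60.1% of 16837 genes. The median ratio of first to second was 1.13 at the ribosomal protein genes, against 1.16 at all genes, and was 1.13 both over all ranked and over all listed peaks. The ratio ran between 0.0690 at rps-3, where the matched signals were 2.33 and 33.7, and 8.83 at rpl-28, where they were 33.7 and 3.82. The genes rps-3 and rpl-28 encode a small- and a large-subunit protein with pooled signals of 43.0 and 48.1. At each of them the matched peak of 1 replicate was at a very low signal.

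**Figure D4:**
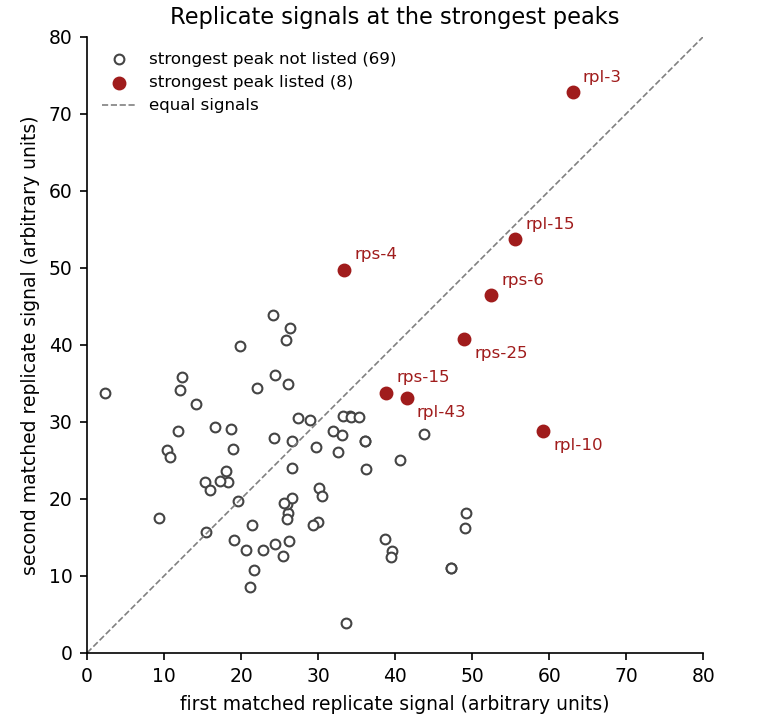
First against second matched replicate signal (arbitrary units) at the strongest peak of each of 77 ribosomal protein genes, filled where that peak is listed; the dashed line marks equal signals. The listed peaks lie toward the upper right, except that rpl-10 has a second value of 28.8. The unlisted ones form a cloud without a visible trend. Peaks were listed by the IDR, which itself rests on both replicates.

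The 2 subunits had similar levels: the median strongest signal was 48.2 over 46 rpl- genes with a peak and 51.1 over 31 rps- genes, with 4 listed genes in each. By chromosome, the median over ribosomal protein genes was above that over all genes on chromosomes I (44.1 against 36.8), II (59.1 against 36.2), III (47.5 against 37.1), IV (50.9 against 37.0) and V (49.8 against 34.9). On X, with 2 ribosomal protein genes, it was 33.8 against 34.5. Listed ribosomal protein genes numbered 2 of 23 on I, against 86 of 2878 of all genes there, 2 of 10 on II (against 76 of 3449) and 1 of 18 on III (against 73 of 2640). They numbered 3 of 17 on IV (against 87 of 3281), 0 of 8 on V (against 81 of 4994) and 0 of 2 on X (against 66 of 2731).

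The strongest peak of a ribosomal protein gene often lay past the gene's 3′ end. This was so for 26 of 77 genes (33.8%), against 3.76% of 16837 protein-coding genes. Ribosomal protein genes are short, with a median span of 753.5 bp against 2027 bp over all genes, which brings the region past the 3′ end within 1000 bp of the TSS. Among genes spanning at most 1000 bp, the share was 41.0% of 61 ribosomal protein genes and 17.7% of 3138 protein-coding genes. The strongest peak was upstream at 21 ribosomal protein genes (27.3%, against 40.5% of all), in a coding exon at 21 (27.3%, against 31.7%), in an intron at 7 (9.09%, against 20.1%) and in a noncoding exon at 2 (2.60%, against 3.93%).

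Among the strongest peaks per gene, those past the 3′ end had the highest median signal. It was 60.0 at ribosomal protein genes, against 37.6 over all genes. The upstream ones had a median of 45.3 at ribosomal protein genes, against 35.2 over all genes. These peaks were picked by the same signal. With every pair of a gene and a ranked peak counted, the places differed less. At ribosomal protein genes the medians were then 36.6 past the 3′ end, 30.4 upstream and 31.7 to 34.3 inside the gene. Over all genes they ran between 23.4 and 25.3. Among genes spanning at most 1000 bp the median strongest signal was 51.0 at ribosomal protein genes and 35.7 over all, and the share with a listed peak was 8.06% (5 of 62) against 2.71% (99 of 3659). The TSS nearest to the strongest summit was the gene's own at 44 of 77 ribosomal protein genes (57.1%), against 86.7% over all genes, and at the rest the start of a neighbouring gene was at least as near. Among genes spanning at most 1000 bp the shares were 54.1% of 61 ribosomal protein genes and 76.6% of 3138 protein-coding genes.

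**Figure D5:**
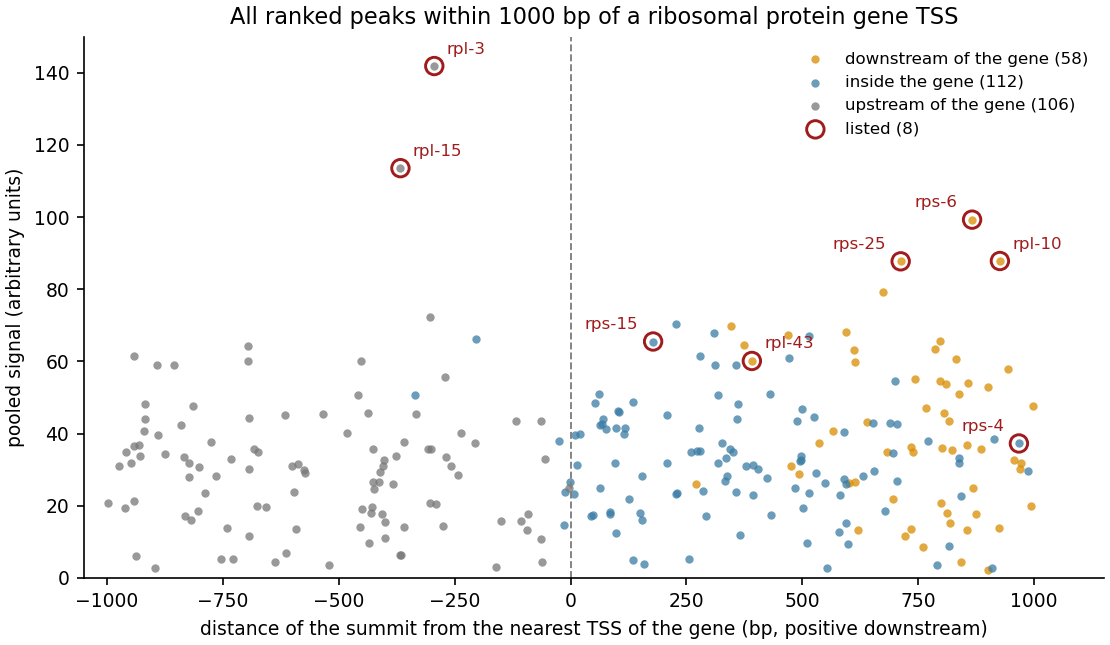
Pooled signal in arbitrary units of every ranked peak within 1000 bp of a ribosomal protein gene TSS, by the distance of its summit from the nearest TSS of that gene in bp (positive downstream), coloured by place and ringed where listed. Peaks are spread over the whole window with no gathering at the start, and most of those above 50 at more than 600 bp downstream lie past the 3′ end.

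With all ranked peaks counted and not the strongest alone, 266 peaks lay at ribosomal protein genes, with a median signal of 31.9 against 24.0 over 46513 peaks at protein-coding genes. Ribosomal protein genes had a median of 4 ranked peaks each and all genes with a peak had 3. In bins of 250 bp across the window the median ran between 24.8 (the 250 bp upstream of the TSS) and 35.5 (750 to 1000 bp downstream) at ribosomal protein genes, and between 23.5 and 25.1 over all genes. The bin just upstream of the start was thus the lowest for ribosomal protein genes, and the difference from all genes was larger in each of the other 7 bins. It also held the fewest pairs of a ribosomal protein gene and a peak (19). The 2 listed upstream summits, at rpl-3 and rpl-15, lay in the next bin out, 250 to 500 bp upstream (median 30.2).

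Host genes of snoRNAs were frequent among the members. A snoRNA gene lay inside 13 of the 78 (16.7%), 19 snoRNA genes in all, against 0.961% (192) of all protein-coding genes, and no tRNA gene lay inside any. The median strongest signal was 44.3 in the 13 hosts (33.9 to 114) and 51.0 in the 64 other ribosomal protein genes with a peak. Listed genes were 2 of the 13 hosts (15.4%; rpl-15 and rps-4), against 19 of all 192 hosts (9.90%), and 6 of the 65 other ribosomal protein genes. The median of the snoRNA hosts was thus not above that of the other ribosomal protein genes.

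A ranked summit lay within 200 bp of a tRNA or snoRNA gene at 16 of the 78 ribosomal protein genes (20.5%), against 1.70% (339) of all protein-coding genes. All 13 snoRNA hosts were among the 16. The share thus depends on where snoRNA genes lie and is not a result about the peaks alone. The strongest of these summits was at rpl-4 (59.0, with 36.3 and 23.8 in the matched peaks, in a coding exon 74 bp from B0041.9). Next was rpl-7A (50.9, with 32.5 and 26.03, in an intron inside Y24D9A.9). After it came the rpl-15 exon peak (48.6), rps-13 (43.0), rpl-2 (40.3) and the listed rps-4 peak (37.3). The others were rps-26 (35.6), the peak that rpl-24.1 and rps-10 share (34.9), rps-29 (34.8), rpl-26 (33.7), rps-23 (32.6), rpl-12 (30.1), rpl-7 (29.1), rps-12 (28.3) and rpl-6 (28.1). Apart from rps-4 none of them was listed. Neighbouring members share peaks: the strongest peak of rpl-39 and rps-30 is the same one (59.0), as is that of rpl-36 and rps-14 (61.5), so these genes are not independent points.

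The A box and B box are the promoter elements of tRNA genes, inside the transcribed region. Within 100 bp of the summit, on either strand and with at most 1 mismatch, one or the other occurred at 0 of the 8 listed ribosomal protein peaks and at 14 of the 258 other ranked peaks of these genes (5.43%). The share was 92.1% of the 379 listed peaks near tRNA and snoRNA genes, 21.2% of the other 599 listed peaks and 6.76% of all 109990 ranked peaks. Of the 8 listed ribosomal protein peaks, 7 were among the 599 away from such RNA genes. A set of 8 peaks is too small to set a count of 0 apart from the 21.2% there, and no test was made. The median GC content of the 201 bp around the summit was 44.5% at the 8 peaks, 46.8% at the 599 listed peaks away from RNA genes and 38.8% over all ranked peaks.

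Other lists of genes of the translation machinery had lower medians. Of 6 genes for cytosolic ribosomal proteins under other names, none had a listed peak; the strongest signals were 53.2 at rack-1, 51.0 at ubl-1, 50.2 at rla-1, 41.3 at rla-0, 33.6 at ubq-2 and 32.9 at rla-2, with a median of 45.8. Of 70 genes of the mitochondrial ribosome 1 was listed, mrps-35, with a summit 379 bp upstream and a signal of 74.7 (44.4 and 33.1 in the matched peaks). Their median was 38.0. Of 35 translation factor genes none was listed and the median was 38.3. Of 12 genes for ribosome assembly 1 was listed, pro-1, which is needed for ribosomal RNA processing in C. elegans, with a signal of 56.0 at 435 bp downstream (37.5 and 34.4), and the median was 39.9. The median of these lists lay between the 36.0 of all protein-coding genes and the 48.6 of the rpl- and rps- genes. A listed peak lay at 2.35% of all protein-coding genes. These lists are too small to set their listed counts apart from that share, and no test was made.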

How the data were processed

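F26F4.8-EGFP was mapped by ChIP-seq in 2 biological replicates, numbered as in the labels, and the authors deposited peak lists on ce11. The aligner and peak caller were not given in the sources used here, and the read depth is unknown. The authors' deposited signal is an enrichment per peak with no scaling stated, and their deposited −log10 values are those of the IDR, capped at 5. The 2 matched-signal columns carry no replicate name: a value was assigned to a replicate where it equalled a peak of that replicate's own ranked list at the same place, which held for 68 of 77 strongest peaks in each column and for all 8 listed peaks. Here, summits were assigned to transcript starts of Ensembl release 115 (Python 3.11.15, pandas 2.3.3), and shares have Wilson intervals from scipy 1.17.1. Assignment was tested on simulated peaks. Genes were named by rule: every member with a listed peak, those in a single other list, the 5 strongest unlisted, those without a peak and those near tRNA or snoRNA genes; other members named are the extremes of a range or neighbours in an order, chosen after their values were seen. Members, lists and this rule were chosen with earlier results of these data known. Windows, peak sets, IDR limits and start sites were varied. The sequence of the rpl-3 peak is not reported here.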

Additional observations from a re-analysis of the deposited data

How the results depend on the processing

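The number of listed ribosomal protein genes (8, against 2.35% of all) was 4 within 500 bp (1.23%), 1 within 200 bp (0.411%), 4 by nearest TSS (1.98%), 1 (rpl-3) at an IDR of at most 0.001 (0.516%), and 5 for genes up to 1000 bp (2.71%). Single replicates gave 2 to 3, against 0.761% to 0.866% of all. The other 5 alternatives gave 7 to 9, against 1.61% to 2.60% of all. The median strongest signal (48.6) was 40.0 within 500 bp (30.6 over all genes) and 31.3 within 200 bp (26.5). It was 51.0 for genes up to 1000 bp (35.7) and 31.9 over all ranked peaks (24.0). Replicate 1 alone gave 29.7 (22.7) and replicate 2 alone gave 28.0 (19.96), each on the scale of its own list. The median distance (551.5 bp) was 391 bp from the gene's 5′ end alone, 391 bp without summits near RNA genes, and 284.5 to 386 bp in single replicates. The settings for short genes and for all ranked peaks were chosen after seeing the data. Apart from windows and stricter limits, which keep fewer peaks by construction, the cause was not tested. Depth is unknown, so no detection limit could be set. No paired analysis was possible because there was 1 group.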
